A study of Mus musculus with 6 samples.

Results

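The genes described here make the prostanoids of the vessel wall or detect them. They are the cyclooxygenase genes Ptgs1 and Ptgs2, the terminal synthase genes Ptgis and Ptges, and the receptor genes Tbxa2r, Ptgir, Ptger1, Ptger2, Ptger3 and Ptger4. They were chosen by symbol, with no measured value in the rule but with earlier results of these data known. All 10 were present among the 55335 genes of the count table. Of these, 9 passed the filter on low counts and were tested, and Ptger2 did not pass.

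RNA of whole aorta from wild-type C57BL/6 mice was sequenced in 6 libraries. The young group held 3 libraries of mice aged 6 weeks and the aged group 3 libraries of mice aged 6 months, and no treatment is named for either. The methods describe all animals as male and the vessel as cleared of surrounding fat under a microscope. The age of 6 months is that of an adult mouse well short of the end of its life. The labels number the libraries as repeats without saying that each was a separate mouse, so p-values measure the spread between these libraries.

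Prostanoids are short-lived lipid signals made from arachidonic acid. A cyclooxygenase turns the free acid into the common precursor prostaglandin H, and a terminal synthase then sets which prostanoid a cell releases. Prostacyclin relaxes vascular smooth muscle and restrains platelets through its receptor, whereas thromboxane contracts smooth muscle and activates platelets through another. Prostaglandin E acts through 4 receptors that couple to different G proteins and so can relax or contract a vessel.

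Counts summed to between 31049632 and 45832185 per library, and mitochondrial transcripts took 21.2, 16.7 and 14.9% of them in young replicates 1 to 3 and 23.1, 26.7 and 30.4% in aged replicates 1 to 3. This share separated the groups, as did the TMM factors that scale library sizes, at 1.058 to 1.106 in young and 0.886 to 0.943 in aged libraries. With mitochondrial genes removed the same number of members, 4, was higher at an unadjusted edgeR p under 0.05, and the part of RNA quality in the results was not tested. Smooth muscle markers were abundant in all 6 libraries, with sums of 28000 to 40200 CPM (a gene's counts scaled to a fixed library size, with TMM normalization), as the aorta label states. Young replicate 1 went against its described sex. Xist, the RNA that silences an X chromosome in female cells, stood at 305.6 CPM there and at 0.204 to 0.636 CPM in the other 5 libraries. The Y-linked gene Ddx3y stood at 1.09 CPM there and at 44.8 to 65.6 CPM in the others. The library labelled young replicate 1 also held the most cardiac muscle marker RNA, 308 CPM against 80.2 to 91.9 CPM. Member values without it are given beside those with it.

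The levels of the 10 genes spanned a wide range when compared per length, as deposited FPKM (reads scaled to gene length and library size). Prostacyclin synthase stood far above the rest. Ptgis averaged 218 ± 35.1 FPKM (SD, n = 6), between 172 and 255 FPKM, and exceeded Tbxa2r in 6 of 6 libraries, by 12.4- to 30.3-fold. Tbxa2r followed at 10.3 ± 2.89 FPKM (SD, n = 6) and exceeded Ptgs1 in 5 of 6 libraries.

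The exception was aged replicate 3, where the level of Tbxa2r in FPKM was 0.522 times that of Ptgs1. Ptgs1 averaged 4.89 ± 4.33 FPKM and Ptgs2 3.04 ± 1.02 FPKM (SD, n = 6). Their order was not fixed, since Ptgs1 was the higher in 3 of 6 libraries. Ptgs2 exceeded Ptgir, at 1.46 ± 0.799 FPKM (SD, n = 6), in 6 of 6.

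The remaining genes lay at or under about the level of Ptgir. Ptger1 averaged 0.950 ± 0.459 FPKM, Ptges 0.904 ± 0.456 FPKM, Ptger3 0.476 ± 0.348 FPKM and Ptger4 0.474 ± 0.167 FPKM (SD, n = 6). Neighbours in this order, from Ptgir down to Ptger4, did not differ beyond their spread, since each exceeded the next in only 3 or 4 of 6 libraries. Some genes further apart did keep their order, as Ptgir exceeded Ptges, and Ptges exceeded Ptger4, in 6 of 6. Ptger2 was lowest, at 0.0472 ± 0.0362 FPKM (SD, n = 6), and Ptger4 exceeded it in 6 of 6. The plot of levels by library shows this order.

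**Figure D1:**
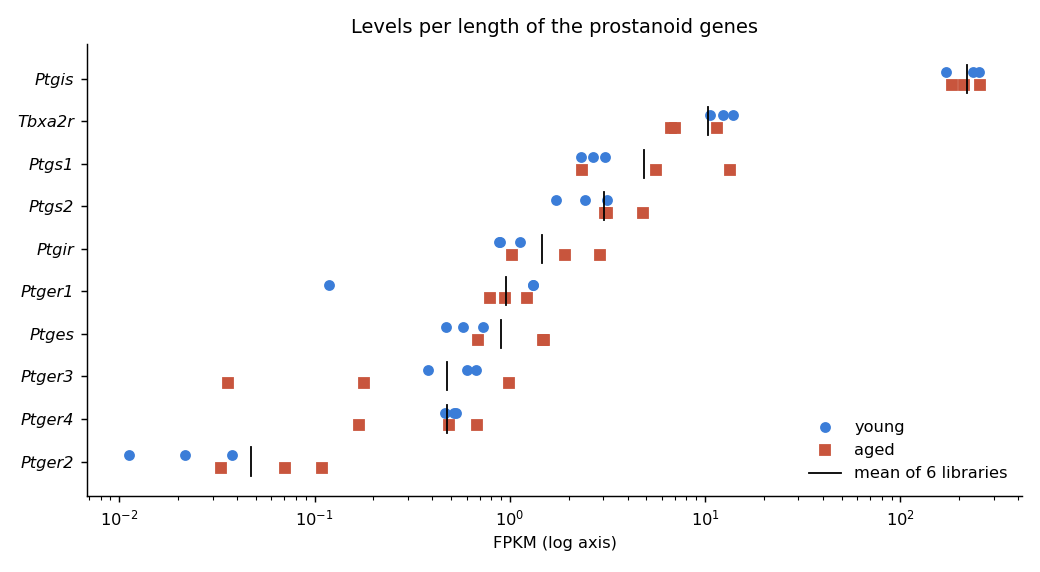
Level of each gene per length in FPKM (log axis) in the 3 young and 3 aged libraries, with genes ordered by their mean over the 6. Ptgis lies between 172 and 255 FPKM, above all other points, and Ptger2 at or below 0.109 FPKM.

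Between ages, the tested genes with the highest ratios were cyclooxygenase-1, microsomal prostaglandin E synthase-1 and the prostacyclin receptor, while the most abundant gene, Ptgis, had a ratio near 1. None of the 9 tested members was called by the edgeR quasi-likelihood test at an adjusted p under 0.05, and neither was any of the 16612 genes tested (0% called). The lowest edgeR adjusted p was 0.390 among the members and 0.189 among all genes. DESeq2 called 311 of the 14964 genes to which it gave an adjusted p (2.08%), and 1 of them was a member, Ptgs1. limma on log2(FPKM + 1) called 0 members.

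At an unadjusted edgeR p under 0.05, 4 of 9 members were higher in aged aorta, Ptgs1, Ptgs2, Ptges and Ptgir, against 5.56% of all genes tested. No member was lower at that level, against 4.82% of all genes tested, and 1723 genes passed it in either direction. The members were chosen with earlier results of these data known, so these shares are a description. Of the members tested, 7 had a log2 fold change above 0 and 2 below. Their median log2 fold change was 0.31, beside 0.02 over all genes tested. The plot of fold changes gives each with its error.

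In TMM-scaled CPM, the aged libraries all lay above the young ones in 3 of the 9 tested members, Ptgs2, Ptges and Ptgir. They did so in 7.74% of all genes tested. In 0 of 9 did the aged libraries all lie below, beside 8.78% of all genes tested. In deposited FPKM the groups overlapped for Ptgs2, Ptges and Ptgir, so this separation depended on the scale. The count of 4 members at an unadjusted edgeR p under 0.05 fell to 2, Ptgs1 and Ptges, without aged replicate 1. It was 1 under limma on log2(FPKM + 1).

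**Figure D2:**
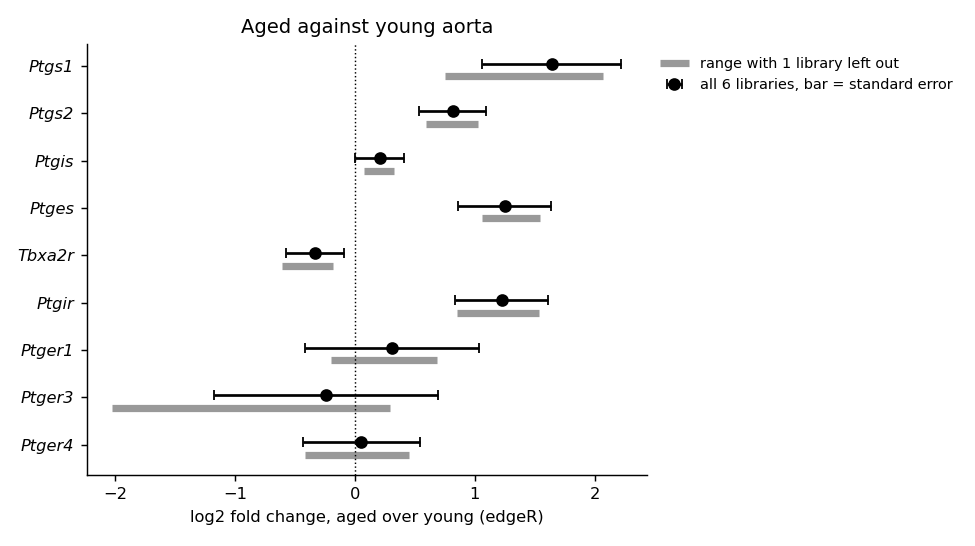
Log2 fold change of aged over young aorta for the 9 tested genes from edgeR (points), with its standard error (black bars) and the range when each library was left out in turn (grey bars). Ptgs1, Ptges and Ptgir lie above 1, and the grey bar of Ptger3 runs from -2.02 to 0.30.

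The 4 genes higher in aged aorta at an unadjusted p are shown here by the 250 bases before their RefSeq start on GRCm38.p6, so that the promoters of genes that differed in the same direction can be compared. They were picked by their values, so what follows is a description. Each is written 5′ to 3′ on the strand of its gene, and capitals mark matches to the motifs searched. Windows were found for 8 of 10 members.
Ptgs1, chr2:36230176-36230425, plus strand: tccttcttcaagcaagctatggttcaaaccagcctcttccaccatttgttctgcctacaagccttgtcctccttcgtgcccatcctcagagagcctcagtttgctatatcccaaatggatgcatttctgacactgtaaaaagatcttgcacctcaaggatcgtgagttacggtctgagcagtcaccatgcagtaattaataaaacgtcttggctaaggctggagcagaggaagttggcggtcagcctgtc
Ptgs2, chr1:150099781-150100030, plus strand: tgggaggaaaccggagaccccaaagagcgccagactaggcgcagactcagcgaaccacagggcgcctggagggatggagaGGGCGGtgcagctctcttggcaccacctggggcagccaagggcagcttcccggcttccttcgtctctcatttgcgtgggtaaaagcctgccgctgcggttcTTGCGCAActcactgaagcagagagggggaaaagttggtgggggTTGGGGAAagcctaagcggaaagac
Ptges, chr2:30903298-30903547, minus strand: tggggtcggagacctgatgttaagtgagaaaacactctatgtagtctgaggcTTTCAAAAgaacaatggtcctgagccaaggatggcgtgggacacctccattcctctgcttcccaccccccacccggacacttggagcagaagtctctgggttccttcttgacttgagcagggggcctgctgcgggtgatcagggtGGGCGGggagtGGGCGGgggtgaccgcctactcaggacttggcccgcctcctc
Ptgir, chr7:16906240-16906489, plus strand: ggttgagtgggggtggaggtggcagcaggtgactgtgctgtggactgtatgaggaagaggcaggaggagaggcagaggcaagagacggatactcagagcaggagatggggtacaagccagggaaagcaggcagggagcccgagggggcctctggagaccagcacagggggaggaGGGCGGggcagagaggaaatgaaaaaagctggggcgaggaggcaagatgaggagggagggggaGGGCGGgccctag

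The motifs searched on both strands were the TATA box TATAAA, the GC box GGGCGG, the E-box CACGTG, the core TGACG of the cyclic AMP response element and a C/EBP-type site TTNNGNAA. In all 32851 mouse windows of this length, 12.4% held the TATA box, 32.7% the GC box, 6.02% the E-box, 17.8% that core and 36.8% the C/EBP-type site. The GC box occurred in the windows of Ptgs2, Ptges and Ptgir, with 1, 2 and 2 matches. The C/EBP-type letters occurred in those of Ptgs2 and Ptges.

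The window of Ptgs1 held none of the 5 and was 48% G and C. The other 3 were 59.6 to 63.6% G and C. The 4 windows thus shared no motif of those searched. The window of Ptges lies inside the longer gene given by GENCODE M21.

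Ptgs1 encodes cyclooxygenase-1, the form that most tissues, platelets among them, make constitutively. It lies on chromosome 2 from 36230426 to 36252272 (plus strand, GRCm38, GENCODE M21, as for all positions of genes here). Ptgs1 had 9.41, 12.2 and 10.5 CPM in young replicates 1 to 3 and 25.5, 10.6 and 64.3 CPM in aged replicates 1 to 3. The young libraries were close together, while aged replicates 1 and 3 lay above all of them and aged replicate 2 lay among them.

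The mean of Ptgs1 was 10.7 ± 1.43 CPM in young and 33.5 ± 27.8 CPM in aged aorta (SD, n = 3 each). Aged over young, the log2 fold change was 1.64 (SE 0.58, edgeR adjusted p = 0.422), a 3.12-fold ratio. A single library carried much of it. Without aged replicate 3 the log2 fold change of Ptgs1 was 0.75, with an edgeR adjusted p of 0.696, and without aged replicate 2 it was 2.07, with an adjusted p of 0.0837.

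Leaving out young replicate 1 gave 1.57 for Ptgs1 (edgeR adjusted p = 0.463), and its unadjusted p was then above 0.05. DESeq2 gave it a log2 fold change of 1.65 and an adjusted p of 0.0495, just inside the threshold. With the replicate number as a block the log2 fold change of Ptgs1 was 1.30 (edgeR adjusted p = 0.489). Aged replicate 3 also held the most endothelial marker RNA, a sum of 1710 CPM over 7 markers against 353 to 499 CPM in the other 5 libraries, and its part in the level of Ptgs1 was not tested. In whole tissue, fewer cells of a type and less RNA per cell cannot be told apart.

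Ptgs2 encodes cyclooxygenase-2, the form induced by cytokines, growth factors and shear stress. It lies on chromosome 1 from 150100031 to 150108227 on the plus strand. Ptgs2 had 11.7, 8.05 and 14.3 CPM in the young libraries and 25.8, 16.5 and 17.8 CPM in the aged ones, so the groups did not overlap. The closest pair was young replicate 3 and aged replicate 2. In FPKM this pair stood at 3.12 and 3.07, so the groups overlapped on that scale.

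Means of Ptgs2 were 11.4 ± 3.16 CPM in young and 20.0 ± 5.04 CPM in aged aorta (SD, n = 3 each). This gave a log2 fold change of 0.82 (SE 0.28, edgeR adjusted p = 0.415). It stayed between 0.59 and 1.03 when each library was left out in turn, and was 0.85 without young replicate 1. Unlike Ptgs1, Ptgs2 was highest in aged replicate 1, so the aged library with the most RNA of one cyclooxygenase was not that with the most of the other.

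Side by side, the FPKM of Ptgs1 was 0.950, 1.79 and 0.856 times that of Ptgs2 in the young libraries and 1.16, 0.759 and 4.27 times in the aged. The balance of the cyclooxygenases overlapped between ages and stood apart in aged replicate 3. The plot of values by library shows both genes.

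**Figure D3:**
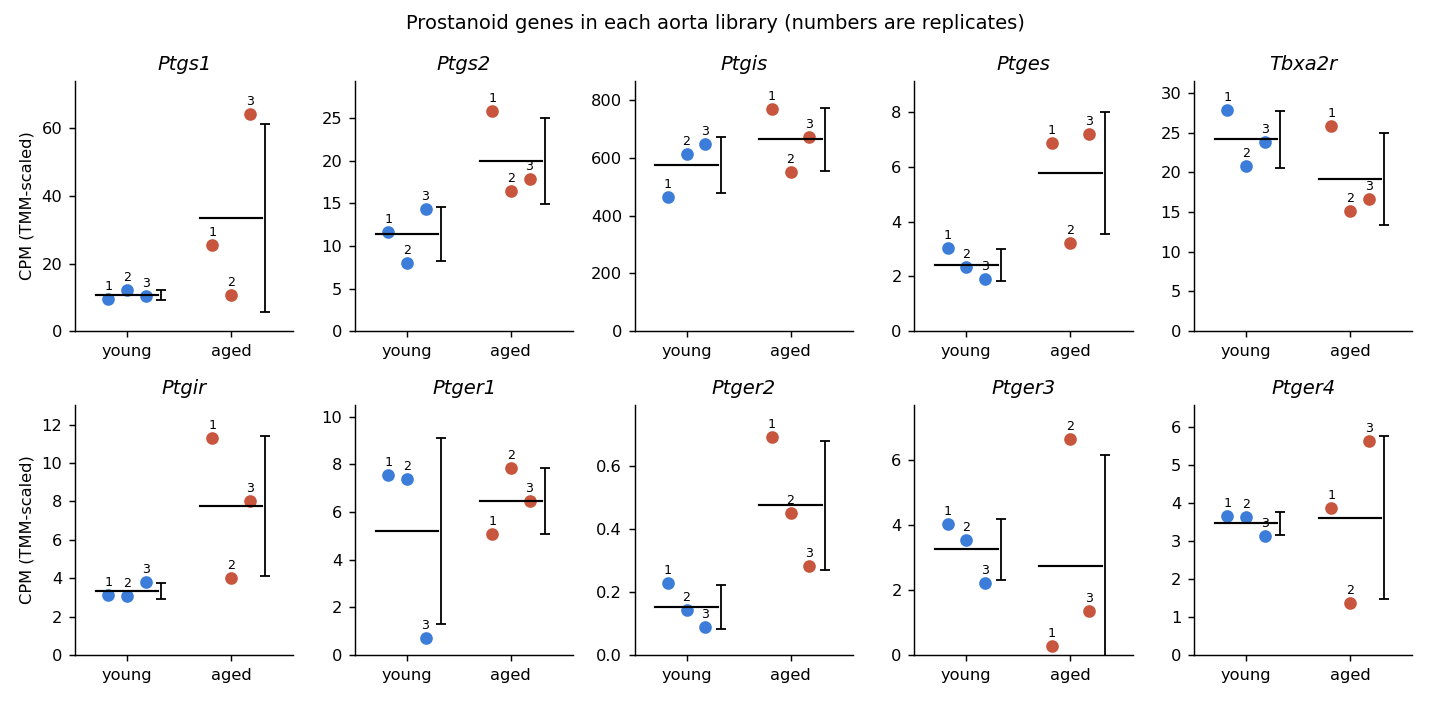
CPM of each of the 10 genes in every library, with young and aged libraries as separate points, the group mean as a horizontal line and the SD (n = 3) as a bar; bars are cut off at 0, and each panel has its own linear axis. Aged points lie above all young points for Ptgs2, Ptges, Ptgir and Ptger2, and aged replicate 3 at 64.3 CPM sets the aged mean of Ptgs1. In FPKM, not drawn here, the groups overlapped for Ptgs2, Ptges, Ptgir and Ptger2.

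Ptgis encodes prostacyclin synthase, a cytochrome P450 family enzyme of endothelium and smooth muscle that makes prostacyclin from prostaglandin H. It lies on chromosome 2 from 167191805 to 167240604 on the minus strand. Ptgis had 463, 612 and 648 CPM in the young libraries and 767, 552 and 671 CPM in the aged ones. The ranges overlapped, with aged replicate 2 below 2 young libraries.

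Its means were 574 ± 98.0 CPM in young and 663 ± 108 CPM in aged aorta (SD, n = 3 each). The log2 fold change of Ptgis was 0.21 (SE 0.20, edgeR adjusted p = 0.733), and 0.08 without young replicate 1. On the FPKM scale the group means were 219 ± 42.2 and 217 ± 35.8, and limma on log2(FPKM + 1) gave -0.01, so the direction depended on the scale. Between 18958 and 25482 counts per library stand behind these values, so the spread is one between libraries and not of counting.

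Set against the enzymes upstream of it, the FPKM of Ptgis was 36.4, 48.9 and 43.6 times the summed FPKM of Ptgs1 and Ptgs2 in the young libraries. It was 24.6, 34.1 and 12.8 times that sum in the aged ones. All aged ratios lay below the young ones, the lowest in aged replicate 3, where Ptgs1 was highest. The ratio was formed after the values had been seen and was not tested.

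Ptges encodes microsomal prostaglandin E synthase-1, an inducible enzyme that often works with cyclooxygenase-2. It lies on chromosome 2 from 30889471 to 30929863 on the minus strand. Ptges had 3.03, 2.33 and 1.89 CPM in the young libraries and 6.89, 3.21 and 7.22 CPM in the aged ones, so the groups did not overlap. Aged replicate 2, the lowest of its group, lay close to young replicate 1. In FPKM these libraries stood at 0.688 and 0.729, so the groups overlapped on that scale.

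Means of Ptges were 2.42 ± 0.576 CPM and 5.77 ± 2.23 CPM (SD, n = 3 each). The difference was 1.25 on the log2 scale (SE 0.39, edgeR adjusted p = 0.390), a 2.38-fold ratio. Of the members it was the one whose unadjusted p was under 0.05 in 14 of 14 alternative analyses. Left-out libraries moved it between 1.06 and 1.54, and it was 1.46 without young replicate 1.

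Tbxa2r encodes the thromboxane receptor, which contracts vascular smooth muscle. It lies on chromosome 10 from 81328731 to 81335172 on the plus strand. Tbxa2r had 27.9, 20.8 and 23.8 CPM in the young libraries and 25.8, 15.1 and 16.6 CPM in the aged ones. Aged replicates 2 and 3 were the lowest of all, while aged replicate 1 lay within the young range.

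Means of Tbxa2r were 24.2 ± 3.58 CPM in young and 19.2 ± 5.81 CPM in aged aorta (SD, n = 3 each). Their difference was -0.33 on the log2 scale (SE 0.24, edgeR adjusted p = 0.653). It was -0.61 without aged replicate 1 (edgeR adjusted p = 0.557), -0.18 without aged replicate 2 and -0.21 without young replicate 1. Smooth muscle marker sums were 32200 to 40200 CPM in the young and 28000 to 33300 CPM in the aged libraries, with 0 of 7 markers above 0 in log2 fold change and 4 of 7, Myh11, Smtn, Lmod1 and Myocd, lower at an unadjusted edgeR p under 0.05. Their part in the level of Tbxa2r was not tested.

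Ptgir encodes the prostacyclin receptor, which raises cyclic AMP in smooth muscle and platelets. It lies on chromosome 7 from 16906490 to 16910905 on the plus strand. Ptgir had 3.14, 3.05 and 3.79 CPM in the young libraries and 11.3, 4.03 and 8.0 CPM in the aged ones. The groups did not overlap in CPM, although aged replicate 2 lay close to young replicate 3. In FPKM these libraries stood at 1.03 and 1.13, so the groups overlapped on that scale.

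Means of Ptgir were 3.32 ± 0.404 CPM and 7.78 ± 3.65 CPM (SD, n = 3 each). Its log2 fold change was 1.23 (SE 0.39, edgeR adjusted p = 0.390), a 2.34-fold ratio. It was 0.85 without aged replicate 1 (edgeR adjusted p = 0.610), 1.54 without aged replicate 2 (edgeR adjusted p = 0.0771) and 1.19 without young replicate 1.

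Thromboxane and prostacyclin act on the same muscle in opposite ways, so their receptors were also set against each other. The FPKM of Ptgir was 0.0639, 0.0842 and 0.0914 times that of Tbxa2r in the young libraries and 0.252, 0.154 and 0.276 times in the aged ones. The thromboxane receptor had the higher level in all 6 libraries, and the ratio was higher in all 3 aged libraries. This ratio too was formed after the values had been seen and was not tested.

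The 4 receptors for prostaglandin E were low and gave no common direction. Ptger1 encodes EP1, a receptor coupled to calcium, and lies on chromosome 8 from 83666678 to 83672753 on the plus strand. Ptger1 had 7.55, 7.39 and 0.699 CPM in the young libraries and 5.09, 7.85 and 6.48 CPM in the aged ones. Young replicate 3 stood apart, with 24 counts, and the other 5 libraries overlapped.

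The log2 fold change of Ptger1 was 0.31 (SE 0.73, edgeR adjusted p = 0.895), -0.20 without young replicate 3 and 0.69 without young replicate 1. Leaving out young replicate 3 thus turned the sign. Whether reads were counted by strand is not given in the sources used here, so the values of Ptger1 are uncertain.

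Ptger2 encodes EP2, which raises cyclic AMP, and lies on chromosome 14 from 44988195 to 45003820 on the plus strand. It had 11, 5 and 3 counts in the young libraries and 23, 17 and 8 counts in the aged ones. On the CPM scale these were 0.227, 0.144 and 0.0874 against 0.692, 0.451 and 0.283, so the groups did not overlap. In FPKM they did, with aged replicate 3 at 0.0331 below young replicate 1 at 0.0379. The gene was not tested, and at this depth a difference rests on a handful of reads.

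Ptger3 encodes EP3, which lowers cyclic AMP, and lies on chromosome 3 from 157566892 to 157645888 on the plus strand. Ptger3 had 4.02, 3.53 and 2.21 CPM in the young libraries and 0.271, 6.65 and 1.34 CPM in the aged ones. Aged replicate 2 was the highest library of all and the other 2 aged libraries were the lowest. The aged spread, a coefficient of variation of 124%, was the widest of the 10 genes.

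The log2 fold change of Ptger3 was -0.24 (SE 0.93, edgeR adjusted p = 0.943). It was -2.02 without aged replicate 2 (edgeR adjusted p = 0.311), 0.30 without aged replicate 1, 0.09 without aged replicate 3 and -0.04 without young replicate 1. Aged replicate 2 held the most brown fat marker RNA, a sum of 1860 CPM over 5 markers against 127 to 584 CPM in the other libraries. Ucp1, the uncoupling protein that defines brown fat, had 1422 CPM there and 45.2 to 361 CPM elsewhere. Cidea and Elovl3 were also highest in that library. Dio2 was lowest there, at 42.3 CPM against 48.0 to 109 CPM elsewhere, and Ppargc1a was higher in young replicate 2. The part of these markers in the level of Ptger3 was not tested.

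Ptger4 encodes EP4, the other receptor of this family that raises cyclic AMP, and lies on chromosome 15 from 5206661 to 5244187 on the minus strand. Ptger4 had 3.65, 3.62 and 3.12 CPM in the young libraries and 3.85, 1.35 and 5.63 CPM in the aged ones. The young values were close together and lay inside the aged range. Ptger4 had a log2 fold change of 0.06 (SE 0.49, edgeR adjusted p = 0.977), with a range of -0.41 to 0.45 over left-out libraries and 0.10 without young replicate 1.

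Summed over the 4 receptors, the level was 2.53, 2.47 and 0.976 FPKM in young and 1.42, 2.45 and 1.84 FPKM in aged libraries. The ranges overlapped, and the lowest sum was in young replicate 3, where Ptger1 was at its lowest. No direction was shared by the receptors for prostaglandin E, in contrast to that for prostacyclin, but the difference between receptors was not tested.

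Markers of other cell types differed between the libraries in which members were high or low. Macrophage markers summed to 87.7 to 116 CPM in young and 120 to 379 CPM in aged libraries, with Lyz2 the most abundant, and 7 of 7 were higher at an unadjusted edgeR p under 0.05. Fibroblast markers summed to 1860 to 2860 CPM in young and 1700 to 6580 CPM in aged libraries, led by Col1a1, and 4 of 6 were higher at that level. Col1a1 itself was not among those 4, with a log2 fold change of 0.17 (edgeR adjusted p = 0.882). Within the aged group Ptgir was highest in replicate 1 and lowest in replicate 2, and so were the macrophage sums, at 379, 120 and 251 CPM in replicates 1 to 3, and the fibroblast sums.

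Endothelial sums were 499, 458 and 408 CPM in young and 385, 353 and 1710 CPM in aged libraries, and Pecam1, the most abundant, had 870 CPM in aged replicate 3 against 167 to 225 CPM elsewhere. Platelet markers, 6 of 7 of which were counted in every library, summed to 21.3 to 63.2 CPM in young and 24.0 to 58.2 CPM in aged libraries, with Pf4 the most abundant. Platelets carry Ptgs1 and Tbxa2r, and the platelet sums overlapped between the groups. Adipocyte sums, led by Fabp4, were 382 to 1160 and 615 to 1880 CPM.

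Mesothelial markers, led by Upk3b, summed to 2.37 to 62.1 CPM in young and 1.14 to 66.1 CPM in aged libraries. Schwann cell markers, led by S100b, summed to 14.0 to 23.7 and 27.0 to 43.8 CPM, and cardiac muscle markers, led by Tnnt2, to 80.5 to 308 and 80.2 to 82.5 CPM. The part of these cell types in the levels of the prostanoid genes was not tested.

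**Figure D4:**
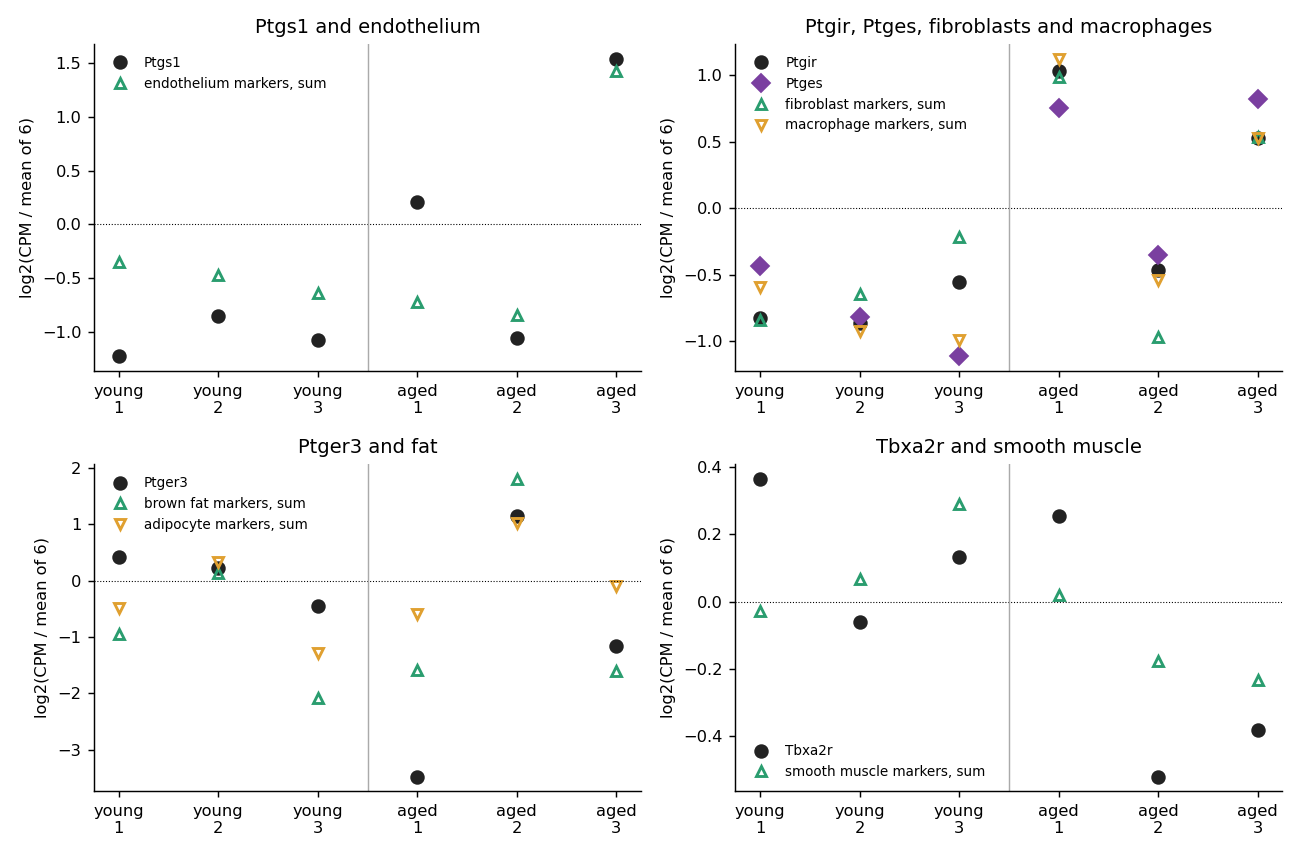
Each library's CPM over the mean of the 6 libraries, as log2, for Ptgs1, Ptgir, Ptges, Ptger3 and Tbxa2r beside the summed markers of endothelium, fibroblasts, macrophages, fat and smooth muscle. The endothelial marker sum and Ptgs1 stand out in aged replicate 3 and the brown fat marker sum and Ptger3 in aged replicate 2. The macrophage and fibroblast marker sums and Ptgir stand out in aged replicate 1, while Ptges is highest in aged replicate 3.

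The rest of the prostanoid pathway was read from a list of 45 other genes. Of these 40 were tested, 0 had an adjusted p under 0.05 with edgeR, DESeq2 or limma, and the lowest edgeR adjusted p was 0.411. At an unadjusted edgeR p under 0.05, 1 of 40 was higher in aged aorta and 3 of 40 were lower, beside 5.56% and 4.82% of all genes tested, so neither share stood far from that of all genes. Log2 fold changes were above 0 in 27 and below 0 in 13, beside 8654 and 7958 of all genes tested, with a median of 0.07 beside 0.02 over all genes tested.

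Among genes that release arachidonic acid, 5 of 6 tested were above 0, with a median log2 fold change of 0.54. That median was 0.22 without aged replicate 3, 0.33 without young replicate 3, 0.23 with at least 10 counts in every library and 0.11 with limma on log2(FPKM + 1). Pla2g4a, the cytosolic phospholipase and the member of that role with the highest level in FPKM, had 51.8, 34.1 and 45.7 CPM in the young and 66.0, 55.0 and 56.2 CPM in the aged libraries. Its aged values in CPM all lay above the young, with a log2 fold change of 0.43 (SE 0.19, edgeR adjusted p = 0.501). In FPKM the groups overlapped, with young replicate 1 at 7.74 above aged replicates 2 and 3 at 7.38 and 7.11. Pla2g4b, a related phospholipase, was the exception in direction, with 4.79, 7.36 and 3.64 CPM in young against 2.62, 3.02 and 1.91 CPM in aged libraries (log2 fold change -1.06, SE 0.35, edgeR adjusted p = 0.411).

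All 8 other terminal synthases were above 0, with a median log2 fold change of 0.34, but only 5 of 8 were with limma on log2(FPKM + 1), where the median of all genes was -0.12. Without young replicate 3 it was 6 of 8 with a median of 0.11, without aged replicate 2 it was 6 of 8, and without aged replicate 1 or young replicate 1 it was 7 of 8, with medians of 0.21 and 0.53. Ptges3, the cytosolic prostaglandin E synthase and a cochaperone, was the highest of them in FPKM and had a log2 fold change of 0.36 (SE 0.18, edgeR adjusted p = 0.533). Both tested genes among other receptors and their partner were above 0 with edgeR, and 1 of them was with limma on log2(FPKM + 1) or without aged replicate 1. Their highest in FPKM, Ptgfrn, a partner protein of the prostaglandin F receptor, had a log2 fold change of 0.08 (edgeR adjusted p = 0.922).

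All 5 genes of prostanoid transport and inactivation were above 0 with edgeR and with limma on log2(FPKM + 1), with an edgeR median log2 fold change of 0.58. Without aged replicate 1 it was 4 of 5, and the median was 0.40 without aged replicate 3, 0.92 without young replicate 1 and 1.17 without young replicate 2. Abcc4, a transporter that exports prostanoids, had 3.49, 5.78 and 3.38 CPM in young and 6.17, 6.02 and 11.1 CPM in aged libraries, without overlap. In FPKM the groups overlapped, with young replicate 2 at 0.887 above aged replicates 1 and 2 at 0.822 and 0.800. The log2 fold change of Abcc4 was 0.88 (SE 0.36, edgeR adjusted p = 0.462). Ptgr1, a prostaglandin reductase and the highest of the role in FPKM, had 0.30 (SE 0.45, edgeR adjusted p = 0.829).

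Genes that couple the receptors to their signals, G protein subunits, adenylyl cyclases and phospholipases C among them, had 7 above and 12 below 0. Their edgeR median log2 fold change was -0.13. That median ran from -0.25 without aged replicate 2 to -0.02 without young replicate 3. With limma on log2(FPKM + 1), where the median of all genes was -0.12, 1 was above and 18 were below 0. Adcy9, an adenylyl cyclase, had 8.34, 9.69 and 14.8 CPM in young and 5.12, 5.01 and 7.68 CPM in aged libraries (log2 fold change -0.88, SE 0.30, edgeR adjusted p = 0.415). Plcb4, a phospholipase C that Gq-coupled receptors use, had 269.9, 176 and 405 CPM in young and 86.5, 152 and 169 CPM in aged libraries (log2 fold change -1.06, SE 0.36, edgeR adjusted p = 0.415). In both genes the aged libraries all lay below the young. Of the smooth muscle markers 4 of 7 were lower at an unadjusted p as well, as given beside Tbxa2r, and their part in these values was not tested. Adcy5, an adenylyl cyclase and the highest of this role in FPKM, had 617, 718 and 812 CPM in young and 615, 761 and 589 CPM in aged libraries, which overlapped, with a log2 fold change of -0.13 (SE 0.18, edgeR adjusted p = 0.822).

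**Figure D5:**
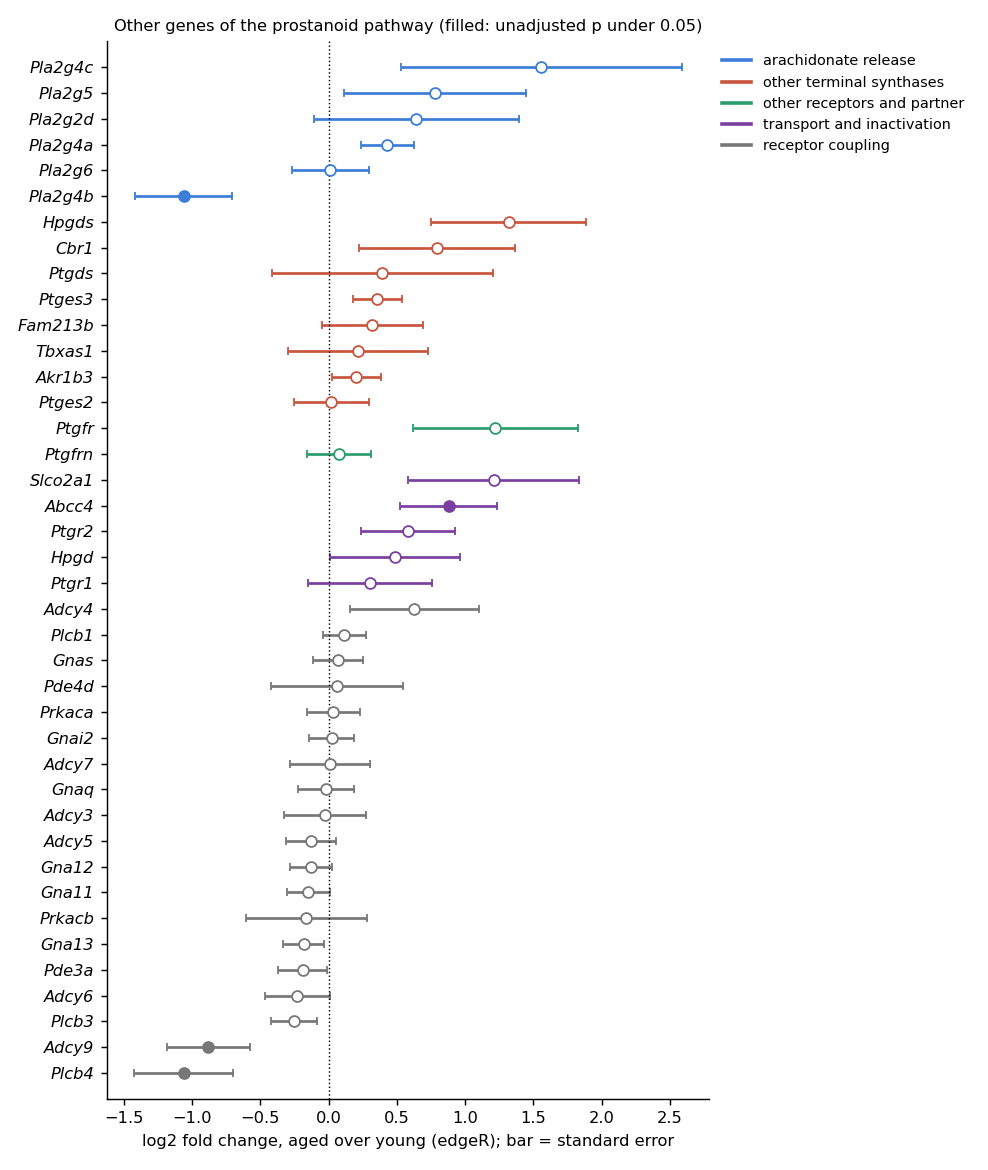
Log2 fold change of aged over young aorta with its standard error from edgeR for the 40 tested genes of the wider pathway list, coloured by role, with filled points for an unadjusted p under 0.05. With edgeR and all 6 libraries the synthases and transport genes lie to the right of 0, although 3 of 8 synthases lay below 0 with limma on log2(FPKM + 1), and the filled points are Abcc4 to the right and Pla2g4b, Adcy9 and Plcb4 to the left.

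Genes whose pattern over the 6 libraries was most like that of the 3 most abundant members were read from Pearson's r of log2 CPM among 14084 genes. For Ptgis these were Sec16b (r = 0.994), Ccdc85b (r = 0.990) and Nasp (r = 0.985). For Tbxa2r they were Msh6 (r = 0.994), Gmpr2 (r = 0.991) and Jam3 (r = 0.983), and for Ptgs1 they were Tmod3 (r = 0.993), Tnfrsf1a (r = 0.989) and Tgfa (r = 0.988). Of the 14084 genes, 26, 50 and 79 had r above 0.95 with Ptgis, Tbxa2r and Ptgs1. Each r rests on 6 libraries, so the names are a description of these libraries.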

How the data were processed

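The authors sequenced SMARTER mRNA-Seq libraries of aorta single-ended and deposited read counts per gene and FPKM for the same 6 libraries. The genome build in the submitters' processing notes is mm10. The aligner, counter and annotation are not given in the sources used here. Genes were matched by symbol, and positions came from GENCODE M21 (GRCm38).

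Counts were filtered and TMM-normalized with edgeR 4.0.16 in R 4.3.3 (filterByExpr, minimum count of 10, minimum total of 15). Quasi-likelihood models compared aged with young, with Benjamini-Hochberg adjustment over all genes tested and a threshold of 0.05. The fit was checked on simulated counts. DESeq2 1.42.0, limma 3.58.1 on log2 of the deposited FPKM plus 1 or 0.1, RLE size factors, other filters, a replicate block and each library left out were tried as alternatives. Genes named are the 10 members, pathway genes at an unadjusted p under 0.05 or highest in FPKM in their role, the most abundant markers, the 3 genes most like each of the 3 most abundant members, and Xist and Ddx3y. Other genes given were chosen after their values were seen. A withheld item is not reported here. The members and lists were chosen with earlier results of these data known.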

Additional observations from a re-analysis of the deposited data

How the results depend on the processing

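DESeq2 called 311 genes against 0 with edgeR, and 1 member, Ptgs1, against 0. Leaving out each library in turn gave 0 to 110 called genes (110 without aged replicate 2), none a member. Genes at an unadjusted p under 0.05 numbered 1723 with edgeR, 2941 with limma on log2(FPKM + 1) and 1061 to 2359 with a library left out, the fewest without young replicate 3. Members higher in aged aorta at that level numbered 1 under both limma fits, against 4, and 2 to 4 with a library left out. Members lower numbered 1 with limma on log2(FPKM + 1), Tbxa2r, and 0 to 1 with a library left out (Tbxa2r without aged replicate 1, Ptger3 without aged replicate 2). Pathway list genes higher numbered 3 without a filter, 2 with at least 10 counts in every library, 2 with the replicate block, 5 with DESeq2, 0 with limma on log2(FPKM + 1) and 0 to 6 with a library left out, against 1. Those lower numbered 8 with limma on log2(FPKM + 1) and 1 to 4 with a library left out, against 3. Log2 fold changes changed sign for Ptgis (-0.011 under both limma fits), Ptger4 (-0.14 with the replicate block, -0.075 and -0.28 with limma at pseudocounts of 1 and 0.1) and Ptgfrn (-0.15 and -0.17 with limma). They also did so with a library left out for Ptger1 (-0.20 to 0.69), Ptger3 (-2.02 to 0.30), Ptger4 (-0.41 to 0.45), Ptgfrn (-0.11 to 0.28) and Ptgr1 (-0.072 to 0.92). The cause was not tested. Over all genes tested, the median log2 fold change was 0.02 with edgeR and -0.12 and -0.19 with limma. Same-numbered libraries deviated together only weakly, with correlations of 0.0786, 0.117 and 0.0957, although each correlated best with its own number. With the replicate block 0 genes were called and 3 members were higher at an unadjusted p under 0.05. Ptger3 could not be tested with at least 10 counts in every library, and Ptger2 is limited by its 3 to 23 counts.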

Other observations

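A few pathway genes outside the rule for naming were picked after their values were seen, and edgeR called none of them at an adjusted p under 0.05. Ptgfr, the prostaglandin F receptor gene, had 3.76, 5.66 and 6.88 CPM in the young libraries and 17.3, 3.15 and 17.6 CPM in the aged ones, with aged replicate 2 the lowest of all 6 (log2 fold change 1.22, SE 0.60, edgeR adjusted p = 0.530). Slco2a1, the gene of a prostaglandin uptake transporter found in endothelium, had 11.6, 19.9 and 13.3 CPM in young and 17.0, 13.9 and 72.6 CPM in aged libraries (log2 fold change 1.21, SE 0.63, edgeR adjusted p = 0.543). It was thus highest in aged replicate 3, the library with the most Ptgs1 and Pecam1. Hpgds, which encodes the hematopoietic prostaglandin D synthase, had 0.557, 1.15 and 0.816 CPM in young and 2.83, 0.848 and 2.62 CPM in aged libraries (log2 fold change 1.32, SE 0.57, edgeR adjusted p = 0.484). Tbxas1, the thromboxane synthase gene, had 2.62, 1.12 and 0.816 CPM in young and 2.11, 1.48 and 1.73 CPM in aged libraries, which overlapped (log2 fold change 0.22, SE 0.51, edgeR adjusted p = 0.896).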
